A study of Homo sapiens with 6 samples.

Results

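The serine/arginine-rich (SR) proteins and the heterogeneous nuclear ribonucleoproteins (hnRNPs) were examined as gene families in cells with raised ADAR1 p110. Members were chosen by name, as the protein-coding genes of the deposited table with the symbols SRSF plus a number or HNRNP plus letters or digits, and not by their values. The rule found 36 of 60461 genes, 12 of them SRSF and 24 HNRNP. Cells of MDA-MB-231, a human line derived from triple-negative breast cancer and long in culture, received adenovirus at a multiplicity of infection of 200, coding for ADARp110 in 3 libraries and for eGFP, a fluorescent protein, in the other 3. Medium was changed at 16 h and total RNA was extracted at 48 h. Both groups therefore carried virus, and cells without virus were not analysed here. The labels call the replicates biological without saying how cultures were kept apart, and the p-values therefore speak only of the spread among these 6 libraries.

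ADAR1 edits adenosines to inosines where RNA is double-stranded. Its p110 form is mainly nuclear and so present where pre-mRNA is spliced. SR proteins join RNA recognition motifs to a domain rich in arginine and serine, bind exonic enhancers and help the spliceosome to recognise nearby splice sites. HnRNPs coat nascent transcripts, often oppose SR proteins at exonic or intronic silencers, and also act in mRNA stability and export. Many members of both families hold down their own output by splicing part of their pre-mRNA into a form with a premature stop codon, which nonsense-mediated decay removes.

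None of the members changed at the threshold of the test. Of 33 members with enough reads to be tested, 0 had an adjusted p under 0.05 (edgeR quasi-likelihood test, adjusted over 18899 genes), where 4.91% of all tested genes did. At an unadjusted p under 0.05 there were 5 members, all with higher estimates in the ADAR1 p110 libraries, or 15.2% of the members against 18.6% of all tested genes. DESeq2 called 1 member, SRSF2, where it called 8.55% of genes, and limma-voom called 0. The 95% intervals of the fold change, which are not adjusted for the number of genes, lay within 1.25-fold in either direction for 28 of the 33 members, among them each of the 11 tested SRSF genes. They lay within 1.5-fold for 32, the exception being HNRNPCL1, a copy of HNRNPC with hardly any reads. Intervals this narrow were common among abundant genes. Of 6477 tested protein-coding genes at 30 CPM or more (counts scaled to the library size), 5409 had intervals within 1.25-fold and 6338 within 1.5-fold. Of the 30 members at that level, 28 and 30 did. At an unadjusted p under 0.05 (edgeR) there were 24.4% of these abundant genes and 13.3% of the 30 members. At the adjusted threshold 155 of the 6477 genes were higher and 317 lower, against 0 members. Whether the members differ from other abundant genes in these values was not tested. In bulk RNA a level averages over all cells, so the share of cells with a transcript and its amount per cell cannot be told apart. Levels are scaled to the library, so a change in the total RNA per cell would not show.

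**Figure D1:**
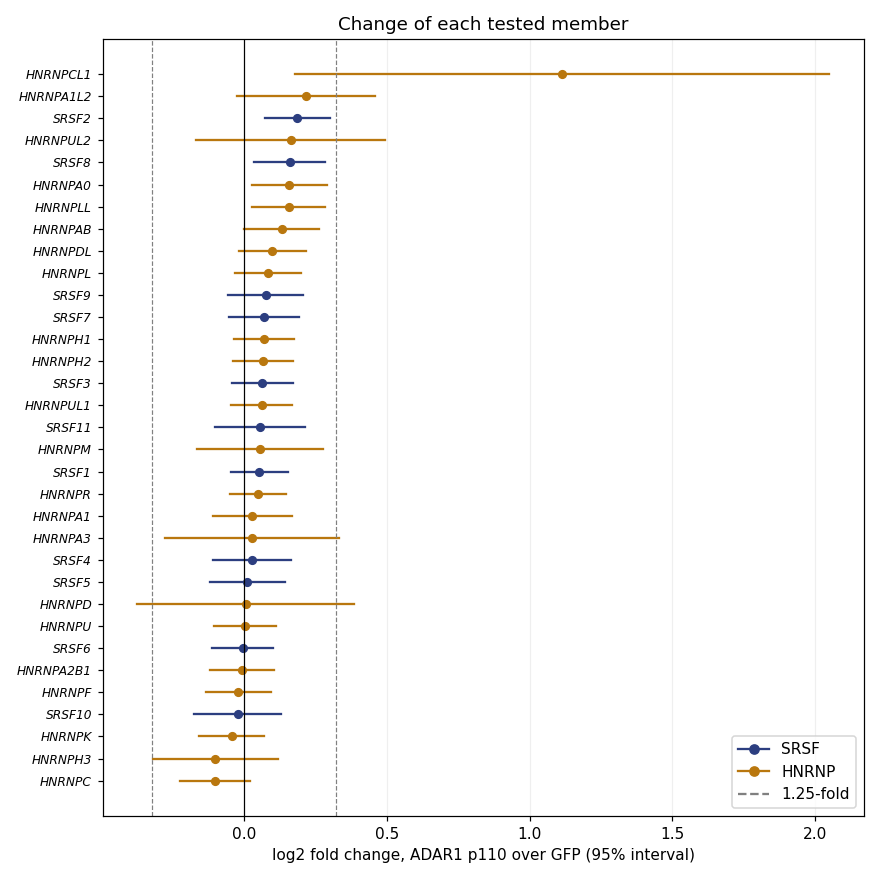
The 33 tested members by their log2 fold change, ADAR1 p110 relative to GFP, on the horizontal axis with its 95% interval, SRSF genes in blue and HNRNP genes in orange, with dashed lines at 1.25-fold. For 28 members the interval stays between the dashed lines, and HNRNPCL1, at 1.11, stands apart with the widest interval.

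Gene counts merge the productive transcripts of a gene with those that end in decay, so a steady count does not show a steady split between the forms. All 12 SRSF genes and 14 of the 23 HNRNP genes found in the GENCODE v44 annotation on GRCh37 (the same build as hg19) have at least 1 transcript annotated for nonsense-mediated decay, as do 46.1% of tested protein-coding genes. In 11 members, 7 SRSF and 4 HNRNP, such a transcript holds an internal exon that touches no exon of an annotated coding transcript and carries the stop codon. Of 17 such exons, some of them overlapping, the start of 8 is given here, at most 1 per gene. Each sequence runs from the 5′ end of the exon to the premature stop, which is in capitals. They are shown because these are the stretches whose inclusion a gene count cannot see. All are in the GRCh37 reference, read on the strand of the gene.
SRSF3, chr6:36567598-36567631, plus strand: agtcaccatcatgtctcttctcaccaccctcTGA
SRSF4, chr1:29492521-29492576, minus strand: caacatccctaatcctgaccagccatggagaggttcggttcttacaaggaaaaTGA
SRSF6, chr20:42087793-42087944, plus strand: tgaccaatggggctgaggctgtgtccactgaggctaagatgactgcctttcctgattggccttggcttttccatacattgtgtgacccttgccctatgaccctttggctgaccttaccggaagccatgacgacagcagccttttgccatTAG
SRSF7, chr2:38976294-38976315, minus strand: ggcagaaaatttgagacggTGA
SRSF11, chr1:70697542-70697591, plus strand: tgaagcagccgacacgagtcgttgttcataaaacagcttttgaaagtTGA
HNRNPH1, chr5:179048952-179048977, minus strand: cgttggtaacggaaagcgacctgTAA
HNRNPL, chr19:39332264-39332322, minus strand: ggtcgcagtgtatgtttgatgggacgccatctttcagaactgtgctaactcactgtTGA
HNRNPLL, chr2:38805098-38805144, minus strand: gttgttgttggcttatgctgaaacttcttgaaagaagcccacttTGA
In the exons shown, the stop comes early in SRSF3, within 34 of 456 bases, and later in SRSF6, at 152 of 268 bases. Another such exon of SRSF3, not shown, has its stop at 82 of 98 bases. The HNRNPL and HNRNPLL exons, of 70 and 83 bases, sit in a pair of genes for related proteins that repress exons. Whether the inclusion of any of these exons differed between the groups was not measured.

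The delivered gene checked the labels. ADAR stood at 1011, 1015 and 991 CPM (counts scaled to the library size, with TMM factors) after ADAR1 p110 virus, replicates 1 to 3, and at 257, 272 and 272 CPM after GFP virus. The log2 fold change was 1.91 (edgeR adjusted p = 2.67e-09, SE 0.049). Library totals ran from 72741235 to 99589278 counts. A count of 0 in them allows up to 0.0301 to 0.0412 CPM, covering counting error only. ADAR1 p110 replicate 1 and GFP replicate 2, with scores of 26.2 and 24.1 on the second principal component, stood apart from the other 4 libraries, which scored -18.2 to -7.49. Of 8 genes expected in MDA-MB-231, such as VIM and CD44, all had counts in every library, with a summed level of 6946 to 7070 CPM in the ADAR1 p110 group and 6895 to 7116 CPM in the GFP group. Within that list PLAU was lower (log2 fold change -0.47, edgeR adjusted p = 0.000331) and CAV1 higher (0.20, edgeR adjusted p = 0.0378) with ADAR1 p110. The 5 leukocyte markers summed to 3.98 to 5.42 CPM over the 6 libraries, and 5 fibroblast and endothelial markers, chiefly PDGFRB, to 36.2 to 41.0 CPM. A list of 7 luminal and hormone receptor genes, expected to be low, summed to 842 to 936 CPM with ADAR1 p110 and 716 to 825 CPM with GFP. Against that expectation 4 of the 7 lay above 1 CPM. They were KRT18, which made up most of the sum, ERBB2 (means of 90.1 CPM with ADAR1 p110 and 85.8 CPM with GFP), EPCAM and GATA3. ESR1, PGR and FOXA1 had too few reads to be tested. The part of this list in the results was not tested.

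Compared per kilobase of the deposited gene length, the 2 families covered a wide and steady range of levels. HNRNPK, a poly(C)-binding protein, was highest at 166.6 ± 6.10 CPM per kilobase (SD over the 6 libraries), followed by HNRNPC (119 ± 6.69), HNRNPF (113 ± 3.65) and HNRNPA1 (112 ± 6.26). HNRNPC, HNRNPF and HNRNPA1 differ by less than the sum of their SDs. Among SRSF genes SRSF1, the founding member of the family, led at 96.6 ± 2.45, ahead of SRSF3 (82.1 ± 2.86) and SRSF2 (79.0 ± 6.18), the last a pair that lie within their spread. SRSF4 (6.10 ± 0.299) and SRSF10 (6.50 ± 0.401) were the lowest of the tested SRSF genes. The deposited length of a gene covers all its annotated exons, so genes with long or rarely used exons, such as HNRNPU with 22512 bp, read low on this scale.

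**Figure D2:**
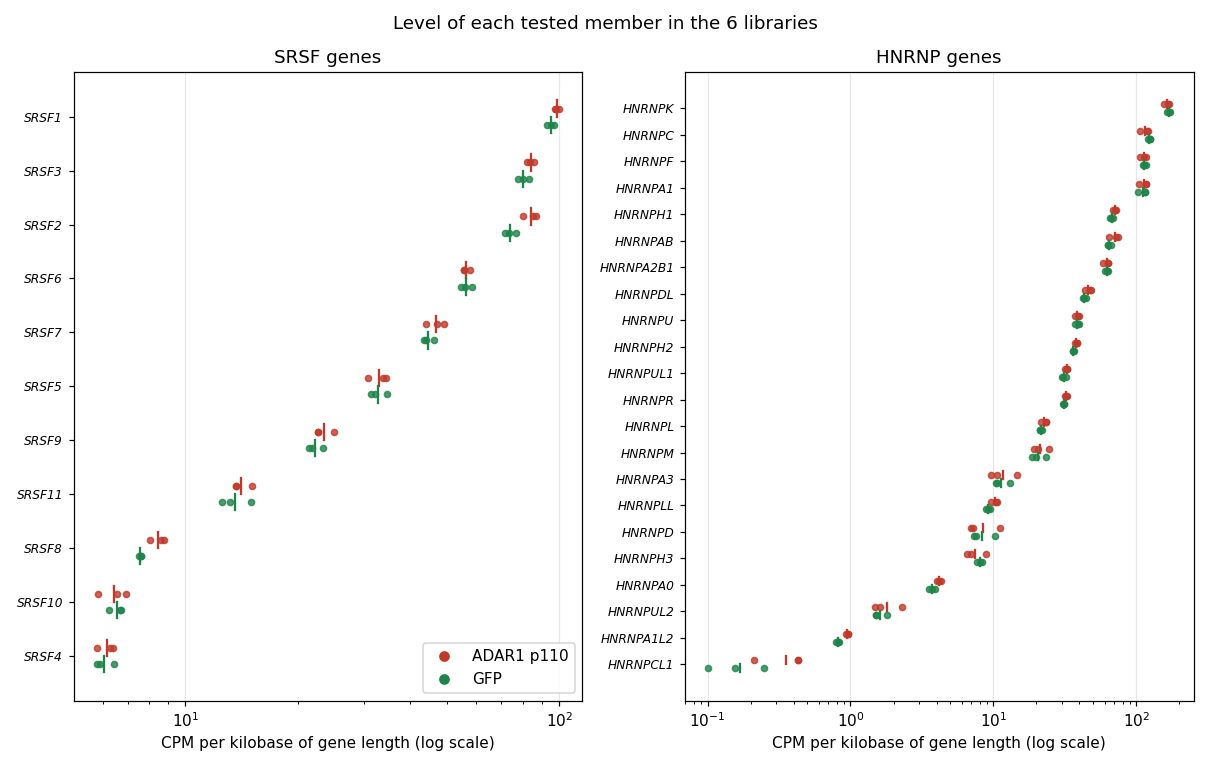
Level of the 33 tested members in each library, as CPM per kilobase of gene length on a log axis, with SRSF genes in the left panel and HNRNP genes in the right, ADAR1 p110 in red, GFP in green and the group mean as a vertical tick. On this wide log axis the groups lie nearly on top of each other from HNRNPK at 166.6 down to HNRNPA1L2 at 0.883. In 8 of the members, HNRNPA1L2 among them, each ADAR1 p110 library still lies above each GFP library, and in 1 each lies below.

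SRSF2 came closest to the threshold. It binds exonic enhancers and also acts in transcription elongation. SRSF2 (hg19 chromosome 17, 74730197 to 74733456, minus strand) had 242, 261 and 257 CPM with ADAR1 p110 against 215, 222 and 231 CPM with GFP. Each ADAR1 p110 library lay above each GFP library, as in 11.8% of all tested genes. The log2 fold change was 0.19 (SE 0.052, edgeR adjusted p = 0.07; 95% interval 0.07 to 0.30). DESeq2 gave an adjusted p of 0.0397 and limma-voom 0.0607. Scaling by library size alone and testing without the low-count filter also brought SRSF2 past the threshold (edgeR adjusted p = 0.0348 and 0.0394), where they called 5.23% and 4.57% of genes. The edgeR value ranged from 0.0126 without ADAR1 p110 replicate 1 to 0.242 without ADAR1 p110 replicate 2 when single libraries were left out. MFSD11, on the other strand of the same locus, held 9.33% as many counts and had a log2 fold change of -0.13 (edgeR adjusted p = 0.265). SRSF8, a close relative of SRSF2, had 32.4, 35.2 and 34.6 CPM against 30.2, 30.7 and 30.6 CPM, again without overlap of the groups, and did not pass (log2 fold change 0.16, edgeR adjusted p = 0.15).

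SRSF1, SRSF3 and SRSF7 kept close to their control level. SRSF1, which promotes exon inclusion and was first described in splicing extracts, had 325, 334 and 327 CPM against 323, 317 and 311 CPM. Its groups did not overlap, but the difference was small, with a log2 fold change of 0.05 and a 95% interval of -0.05 to 0.15. SRSF3, the smallest SR protein and an adaptor for mRNA export, had 586, 610.1 and 596 CPM against 591, 571 and 552 CPM, with overlap. SRSF7, its nearest relative and an export adaptor as well, had 178, 190.4 and 199 CPM against 188, 178 and 176 CPM. The pair share 71.3% of aligned coding bases, with no identical run over 9 bases, and neither passed (log2 fold changes 0.06 and 0.07, edgeR adjusted p = 0.544 and 0.567).

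SRSF4, SRSF5 and SRSF6, relatives with a second RNA-binding domain, gave log2 fold changes of 0.03, 0.01 and -0.0036. SRSF6 had 255, 255 and 265 CPM against 258, 268 and 251 CPM, and its 95% interval was -0.11 to 0.10. SRSF9, a relative of SRSF1, had a log2 fold change of 0.08, and its locus overlaps that of GATC on the other strand, which held 51.3% as many counts. SRSF10, whose dephosphorylated form represses splicing in heat shock and mitosis, had 60.0, 67.4 and 71.5 CPM against 69.1, 64.1 and 68.7 CPM (log2 fold change -0.02). SRSF11 gave 0.06, and less without ADAR1 p110 replicate 1 (0.0097) or GFP replicate 3 (0.0057). SRSF12 was below the filter, with 4 counts in ADAR1 p110 replicate 3, 1 in GFP replicate 2 and 0 in the other 4 libraries, so no fold is given.

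The SRSF genes together took a slightly larger share of the raw protein-coding counts with ADAR1 p110. They took 0.228%, 0.235% and 0.236% of protein-coding counts with ADAR1 p110, replicates 1 to 3, against 0.223%, 0.222% and 0.213% with GFP. The group means were 0.233% ± 0.00427 and 0.219% ± 0.00594 (SD, n = 3 each), and the groups did not overlap. Unlike the CPM values, these shares are not scaled by TMM. The TMM factors were 0.998 to 1.02 with ADAR1 p110 and 0.988 to 0.998 with GFP. Sums of scaled counts were not compared. The difference was a log2 ratio of 0.09, and an exact two-sided permutation test over libraries gave p = 0.1, the smallest that 3 against 3 can give. The 24 HNRNP genes took 0.645%, 0.665% and 0.676% against 0.653%, 0.647% and 0.646%, with overlap (log2 ratio 0.03, exact permutation p = 0.4). With scaling by library size alone, the median log2 fold change of all tested genes was 0.03 as well. Without ADAR1 p110 replicate 1 the HNRNP ratio was 0.05 and without ADAR1 p110 replicate 3 it was 0.01. Set against each other, there were 35.3, 35.4 and 34.9 SRSF counts per 100 HNRNP counts with ADAR1 p110 and 34.2, 34.4 and 32.9 with GFP (exact permutation p = 0.1). With the 2 set-apart libraries left out, the log2 ratio was 0.11 for the SRSF share and 0.05 for the HNRNP share, with 2 libraries a group.

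**Figure D3:**
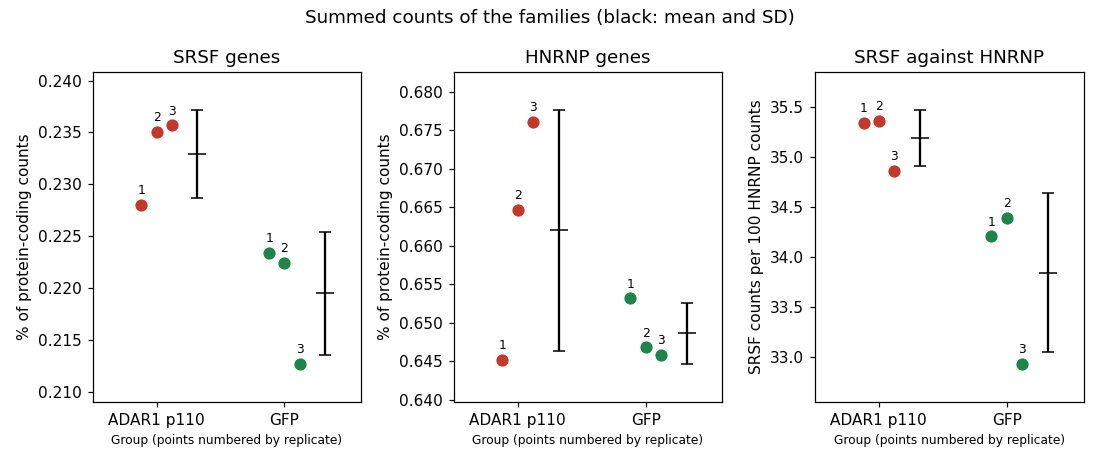
Percent of protein-coding counts held by the SRSF genes (left) and the HNRNP genes (middle), and SRSF counts per 100 HNRNP counts (right), for each library numbered by replicate, with the group mean and SD in black (n = 3 each) and vertical axes that do not start at 0. The SRSF share of raw counts is 0.228 to 0.236 with ADAR1 p110 and 0.213 to 0.223 with GFP. ADAR1 p110 replicate 1 puts the HNRNP shares into overlap.

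More members had estimates above 0 than below. Of the 11 tested SRSF genes 9 were above 0, with a median log2 fold change of 0.06. Among the 22 tested HNRNP genes 17 were, with a median of 0.06, while 51.2% of all tested genes were above 0 with a median of 0.0048. Of tested protein-coding genes at 30 CPM or more, 41.7% were above 0, with a median of -0.0215. Of the 30 members at that level 76.7% were, with a median of 0.0542. Whether these sets differ was not tested. In 8 of the 33 members each ADAR1 p110 library exceeded each GFP library, which held for 11.8% of all tested genes, and in 1 member, HNRNPC, each lay below, which held for 12.2%. The 8 were SRSF1, SRSF2, SRSF8, HNRNPA0, HNRNPA1L2, HNRNPH2, HNRNPLL and HNRNPR. Scaling by library size alone moved the medians of the SRSF and HNRNP genes to 0.08 and that of all genes to 0.03.

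The hnRNPs of the A/B group, abundant packaging proteins with paired RNA recognition motifs, did not move together. HNRNPA1, which favours distal 5′ splice sites and represses exons, had 534, 595 and 597 CPM against 581, 525 and 587 CPM (log2 fold change 0.03), with the lowest value of each group in a set-apart library. HNRNPA2B1, which also sorts RNAs into exosomes, had 479.9, 444 and 475 CPM against 481, 456 and 470.0 CPM (-0.0081). CBX3, on the other strand beside it, held 59.0% as many counts. HNRNPA0, which binds AU-rich elements in stress responses, had 37.2, 36.4 and 34.9 CPM against 30.7, 32.5 and 34.0 CPM, without overlap (log2 fold change 0.16, edgeR adjusted p = 0.177). HNRNPAB, a related factor, had 139, 159.9 and 154 CPM against 137, 135 and 142 CPM (0.13, edgeR adjusted p = 0.27). PHYKPL, on the other strand, held 10.0% as many counts and gave 0.18 (edgeR adjusted p = 0.219).

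HNRNPC had the lowest estimate of the tested members with all 6 libraries in the fit. It binds uridine tracts and keeps cryptic exons, many of them from antisense Alu elements, out of mRNA. HNRNPC (hg19 chromosome 14, 21677295 to 21737653, minus strand) had 779.9, 877 and 861 CPM against 917, 880.0 and 908 CPM. ADAR1 p110 replicate 1 was the lowest of the 6 libraries, and ADAR1 p110 replicate 2 and GFP replicate 2 almost met. The log2 fold change was -0.10 (SE 0.056, edgeR adjusted p = 0.364), with a 95% interval of -0.23 to 0.02. Without ADAR1 p110 replicate 1 it was -0.05, and that of HNRNPH3, at -0.10 with all libraries, was then lower, at -0.24. HNRNPK, at 796, 852 and 870.3 CPM against 884, 843 and 868 CPM, gave -0.04, and -0.0062 without ADAR1 p110 replicate 1. HNRNPU, a scaffold protein of the nucleus that binds chromatin-associated RNA, gave 0.0026 with an interval of -0.11 to 0.11. Its values were 840.2, 886 and 889.6 CPM against 841, 887 and 883 CPM, with the low library of each group at replicate 1.

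HNRNPH1, HNRNPH2 and HNRNPF bind runs of guanosine and can enhance or silence exons. HNRNPH1 had 650.4, 669 and 683 CPM against 655, 631 and 624 CPM (log2 fold change 0.07). HNRNPH2 had 83.0, 85.3 and 84.8 CPM against 79.6, 81.5 and 80.6 CPM, a gap larger than the spread but of the same small size (0.07, edgeR adjusted p = 0.515). HNRNPF had 346, 379 and 369.9 CPM against 378, 368 and 365 CPM (-0.02). HNRNPH1 and HNRNPH2 share 87.6% of aligned coding bases with a longest identical run of 50, and HNRNPH1 and HNRNPF 77.8% with a run of 38. Relatives this close can trade reads, depending on read length and on how multiple alignments were counted.

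HNRNPL and HNRNPLL bind CA-rich elements, and HNRNPLL is known for switching CD45 splicing in lymphocytes. HNRNPL had 146, 159 and 159 CPM against 149.9, 144 and 144 CPM (log2 fold change 0.08). HNRNPLL had 56.8, 63.2 and 61.6 CPM against 52.9, 54.0 and 56.0 CPM, with no overlap (0.16, SE 0.058, edgeR adjusted p = 0.169). HNRNPD, also called AUF1, and HNRNPDL bind AU-rich elements of unstable mRNAs. HNRNPDL had 238, 259.8 and 262 CPM against 242, 231 and 236 CPM, a log2 fold change of 0.10 that did not pass (edgeR adjusted p = 0.357). HNRNPR gave 0.05, with each ADAR1 p110 library above each GFP library. HNRNPUL1, a relative of HNRNPU, had 209, 214 and 215 CPM against 201, 198 and 211 CPM (0.06), with overlap. HNRNPUL2 had 12.1, 8.57 and 7.81 CPM against 7.94, 9.58 and 7.96 CPM, and ADAR1 p110 replicate 1 was the highest library and ADAR1 p110 replicate 3 the lowest. It gave 0.16 with a wide interval of -0.17 to 0.49.

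A subset of hnRNP genes varied more within the groups than between them. HNRNPD had 77.2, 49.0 and 50.04 CPM with ADAR1 p110 against 50.7, 71.8 and 53.1 CPM with GFP. ADAR1 p110 replicate 1 stood at 1.56 times the mean of the other 2 of its group and GFP replicate 2 at 1.38 times that of its own, so that the group means nearly coincided, at 58.8 ± 16.0 and 58.5 ± 11.6 CPM (SD, n = 3 each). The same 2 libraries were the high ones in HNRNPA3 (1.44 and 1.25 times), HNRNPM (1.24 and 1.21 times) and HNRNPUL2 (1.48 and 1.21 times). HNRNPA3 is an A/B-type protein and HNRNPM a regulator of mesenchymal splicing. In all, 5 of 33 tested members, the 5th being HNRNPCL1 with its few reads, lay more than 0.2 on the log2 scale above their group fellows in both of these libraries, as did 9.58% of all tested genes. None of the 33 lay as far below in both, as 4.75% of all tested genes did. Of tested protein-coding genes at 30 CPM or more, a level that 30 of the members reach, 5.37% lay above in both and only 0.185% below. Of the 5 members named here, HNRNPCL1 and HNRNPUL2 do not reach that level, so the 5 of 33 are not a like set. These 2 libraries are the ones set apart on the second component, to which the members themselves contribute, and the pattern is given as a description. The coefficient of variation was 27.2% and 19.8% for HNRNPD in the 2 groups, against 1.17% and 0.40% for HNRNPR.

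**Figure D4:**
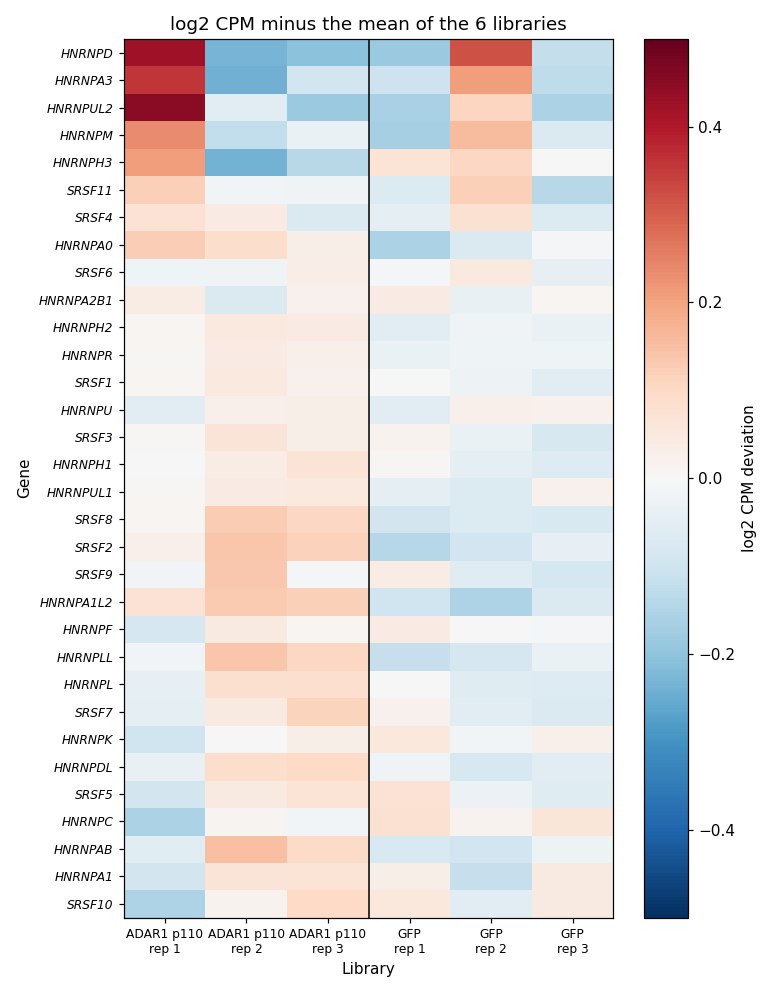
Log2 CPM of 32 tested members (rows, all but HNRNPCL1) in each library (columns) minus the mean of the 6 libraries, red above and blue below, ordered by how far ADAR1 p110 replicate 1 and GFP replicate 2 exceed their groups. HNRNPD, HNRNPA3, HNRNPUL2 and HNRNPM are red in those 2 columns, while most other rows stay pale.

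Leaving out these 2 libraries together gave 6 called members of 33, or 18.2%, where the same fit called 13.4% of all tested genes. SRSF2 (log2 fold change 0.22, edgeR adjusted p = 0.00228), SRSF8 (0.20, 0.0206), HNRNPAB (0.18, 0.00898), HNRNPLL (0.20, 0.011) and HNRNPDL (0.13, 0.0311) were then higher with ADAR1 p110, and HNRNPH3, a small relative of HNRNPH1, was lower (-0.22, 0.0141). Leaving out ADAR1 p110 replicate 1 alone gave the same genes without HNRNPDL, 5 of 33, where 9.19% of genes were called. With all 6 libraries HNRNPH3 had 47.8, 35.1 and 37.6 CPM against 43.3, 44.5 and 41.3 CPM, ADAR1 p110 replicate 1 being the high one. RUFY2, which overlaps HNRNPH3 on the other strand, held 119.6% as many counts. No member was called when any of the other 5 libraries was left out singly. The part of the set-apart libraries in these differences was not tested.

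Of the tested members, the 2 with the fewest reads are copies of more abundant ones. HNRNPCL1, a copy of HNRNPC, had counts of 36, 47 and 18 with ADAR1 p110 against 15, 20 and 11 with GFP. These are 0.395 ± 0.14 and 0.187 ± 0.0828 CPM (SD, n = 3 each), and the groups overlapped. Its log2 fold change of 1.11 did not pass (SE 0.423, edgeR adjusted p = 0.183), and its coding sequence shares 94.8% of bases with HNRNPC, with a longest identical run of 73. HNRNPA1L2, a copy of HNRNPA1 with 98.4% of aligned coding bases in common, had 2.79, 2.90 and 2.88 CPM against 2.48, 2.38 and 2.52 CPM (log2 fold change 0.22, edgeR adjusted p = 0.331). Reads of either copy may come from its parent, which was not tested.

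HNRNPCL2 and HNRNPCL4 are listed at 0 in every library and were not tested. Their entries lie on the same strand of chromosome 1 and share 882 bp, as U2AF1, a splice site factor that every cell uses, and U2AF1L5 share 14628 bp on chromosome 21 and are also listed at 0. A value of 0 in such a pair is therefore not read as absence of the transcript. Beyond the protein-coding copies the table lists 126 pseudogenes named after the families, of which 69 had any counts, 16 were tested and 0 were called (edgeR). The 75 named after HNRNPA1 held 4.01% as many counts as HNRNPA1 itself, most of them in HNRNPA1P33. This share was 3.49% to 4.40% in the ADAR1 p110 libraries and 3.86% to 4.67% in the GFP libraries.

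The promoters of HNRNPC and its copy are shown because the levels of the pair are so far apart, 870.4 CPM over all libraries against less than 1. Each window is from RefSeq on GRCh38.p14 and runs from 250 bases before to 50 after the annotated start. Capitals mark matches on either strand to GGGCGG, the core of a GC box, to CCAAT, or to TATAAA.
HNRNPC, chr14:21269393-21269692, minus strand: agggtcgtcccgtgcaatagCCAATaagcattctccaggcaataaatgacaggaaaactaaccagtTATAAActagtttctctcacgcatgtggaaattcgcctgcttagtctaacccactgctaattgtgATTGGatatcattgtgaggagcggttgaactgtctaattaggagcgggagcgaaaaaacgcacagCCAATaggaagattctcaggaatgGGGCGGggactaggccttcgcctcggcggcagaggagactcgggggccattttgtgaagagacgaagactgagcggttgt
HNRNPCL1, chr1:12848671-12848970, minus strand: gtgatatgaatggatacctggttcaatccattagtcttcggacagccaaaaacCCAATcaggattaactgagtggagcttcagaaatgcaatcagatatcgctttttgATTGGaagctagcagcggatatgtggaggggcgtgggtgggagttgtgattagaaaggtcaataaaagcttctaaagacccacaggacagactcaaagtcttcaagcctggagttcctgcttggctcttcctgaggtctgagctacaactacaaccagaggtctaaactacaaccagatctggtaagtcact
The HNRNPC window holds 15 CpG dinucleotides and a GGGCGG match near the start, while the HNRNPCL1 window holds 4 and no GGGCGG. RefSeq windows were matched for 34 of the 36 members, HNRNPA1 and SRSF2 being unmatched. Over the 48 windows of the members the median was 29 CpG, against 24 over those of tested protein-coding genes. CCAAT was present in 61.8% of the 34 HNRNP windows, 21.4% of the 14 SRSF windows and 34.4% of windows of tested protein-coding genes. GGGCGG was present in 64.7%, 42.9% and 64.6%, and TATAAA in 8.82%, 21.4% and 6.55%. Several windows belong to the same gene, and a match is a description of the letters only. The SRSF3 window had no GGGCGG, and the gene had a mean of 584 CPM. The SRSF12 window had GGGCGG and 37 CpG, and the gene had a mean of 0.0109 CPM. These genes were picked after their values were seen, and letters were not compared with levels over all windows. The part of these letters in the levels was not tested.

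Few other genes of the splicing machinery changed. Across 6 lists with 131 genes, 124 were tested, 2 were higher and 1 was lower, against 4.91% called among all tested genes. The kinase gene SRPK1, whose product phosphorylates the RS domain of SR proteins in the cytoplasm, was the 1 of 14 genes for SR protein kinases, phosphatases and import that fell. SRPK1 had 553, 553 and 573 CPM with ADAR1 p110 against 637, 639 and 633 CPM with GFP. Its log2 fold change was -0.19, at an edgeR adjusted p of 0.043 (SE 0.046). The call was lost in 7 of 14 alternatives, among them library size alone and every single omission except that of ADAR1 p110 replicate 1. The nuclear kinases CLK1 to CLK4 did not pass.

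In a hand-written list of 25 genes for hnRNPs with other symbols and similar RNA-binding proteins, CELF1, which binds GU-rich elements, rose. It had 166, 159.7 and 159 CPM against 142, 141 and 136 CPM (0.21 on the log2 scale, edgeR adjusted p = 0.0324). Of 14 tested regulated or tissue-specific splicing factors, the epithelial factor ESRP2 rose, from 3.30 ± 0.288 to 4.57 ± 0.182 CPM (SD, n = 3 each; log2 fold change 0.47, edgeR adjusted p = 0.027). Calls of both were lost with the replicate number as a block and without ADAR1 p110 replicate 2 or 3 or any one GFP replicate. Among 24 SR-related proteins (THRAP3 the most abundant per kilobase, log2 fold change -0.04), 37 tested genes of the core spliceosome (SNRPB, -0.03) and 10 factors of nonsense-mediated decay (SMG5, -0.06), 0 were called. At an unadjusted p under 0.05 there were 1, 5 and 1 in these 3 lists (edgeR), or 4.17%, 13.5% and 10.0% against 18.6% of all tested genes. Their median log2 fold changes were -0.0053, -0.04 and -0.05.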

How the data were processed

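Total RNA of 6 libraries was made into sequencing libraries with a stranded kit, per the labels' protocols. Reads were aligned to hg19 with STAR 2.5.2a and counted with featureCounts 1.5.1, per the submitters' processing notes, which also name DESeq2 1.4.5 and R 3.1. The authors deposited raw read counts per gene. Deposited gene lengths, in base pairs per the file headers, served for levels per kilobase. The handling of strand, multiple alignments and duplicates was not given in the sources used here.

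Genes passing filterByExpr (minimum count 10) in edgeR 4.0.16 were scaled by TMM, and group, the sole term, was tested by its quasi-likelihood functions (glmQLFit, glmQLFTest; R 4.3.3). The p-values of all 18899 genes were adjusted by Benjamini-Hochberg (threshold 0.05). The SE is the estimate over the square root of F. Alternatives were other scalings, no filter, DESeq2 1.42.0, limma-voom (limma 3.58.1), a block for the replicate number, a table without ADAR, and leaving out libraries. The tests were tested on simulated data. Replicates differed by 8.64 to 39.7 chi-square per degree of freedom, more than counting noise gives for 1 library deposited again.

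The rule by name that gave the members, the lists and the alternatives were set with earlier results of these data known. Full values were given for called members, the 3 highest per kilobase of each family and fixed groups of relatives. From each other list up to 3 called genes, or the most abundant, were named, and other genes were chosen after their values were seen.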

Additional observations from a re-analysis of the deposited data

How the results depend on the processing

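Counts of called members moved with the setting. SRSF members called higher numbered 1 with library size alone, 1 without the low-count filter, 1 with DESeq2 and 2 without the set-apart libraries (ADAR1 p110 replicate 1, GFP replicate 2), and 0 to 2 when single libraries were left out. HNRNP members numbered 3 higher and 1 lower without those 2 libraries, and 0 to 2 higher and 0 to 1 lower when single libraries were left out. With the 6 other splicing lists, lower genes numbered 0 with library size alone, 3 without the filter, 3 with DESeq2 and 3 with limma-voom, 6 were higher and 9 lower without the 2 libraries (12.2% of the 123 tested against 13.4% of all tested genes), and 0 to 5 were higher and 0 to 7 lower when single libraries were left out. The most came without ADAR1 p110 replicate 1 (9.68% against 9.19%). The replicate number as a block gave 0 higher and 0 lower there, 0 called members, and 508 called genes in all against 927. Deviations of same-numbered libraries from their group means correlated at -0.109, -0.0296 and 0.0433, and not every library correlated best with its own number. The largest correlation, 0.161, joined ADAR1 p110 replicate 1 and GFP replicate 2, the set-apart libraries. These values gave no sign of pairing by number, but with 3 libraries a group they cannot exclude it. Of 462 member estimates under alternatives, 36, in 12 members, changed sign without passing the test. With library size alone these were HNRNPA2B1 (0.016), HNRNPF (0.0037), SRSF10 (0.0020) and SRSF6 (0.020). Without the 2 libraries they were HNRNPA3 (-0.052), HNRNPD (-0.065), HNRNPF (0.016), SRSF10 (0.014) and SRSF6 (0.034). HNRNPD was at -0.0084 with limma-voom and -0.010 with the block. With single libraries left out the ranges were -0.016 to 0.080 for HNRNPA1, -0.030 to 0.029 for HNRNPA2B1, -0.17 to 0.15 for HNRNPA3, -0.24 to 0.18 for HNRNPD, -0.044 to 0.017 for HNRNPF, -0.057 to 0.16 for HNRNPM, -0.019 to 0.029 for HNRNPU, -0.048 to 0.29 for HNRNPUL2, -0.076 to 0.045 for SRSF10, -0.0017 to 0.077 for SRSF4, -0.016 to 0.060 for SRSF5 and -0.022 to 0.025 for SRSF6. The log2 ratio of the SRSF share stayed between 0.06 and 0.11, and that of the HNRNP share between 0.01 and 0.05, over the alternatives run on them. None of these alternatives scaled the counts by TMM. The cause of these differences was not tested. Among tested members, HNRNPCL1 had 11 to 47 counts a library.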
